A study of Sus scrofa with 6 samples.

Results

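The genes described are 10 that encode enzymes and helper proteins of collagen maturation: LOX, LOXL1, LOXL2, PLOD1, PLOD2, P4HA1, P4HA2, SERPINH1, BMP1 and PCOLCE. They were taken by gene name from a deposited table of 13288 porcine genes, and each name was found once, so no enzyme was absent. The table holds RNA sequencing of ventricular tissue from male Tibetan minipigs, 3 with sham surgery and 3 with descending aortic constriction (DAC), a surgical narrowing of the descending aorta that loads the left ventricle with pressure. Hearts were collected at the end of the follow-up after surgery. Both groups were of the same breed and had surgery under anesthesia, each sample is 1 minipig, and the labels name the tissue as heart or ventricular without saying which ventricle. The minipigs are named by their label numbers, sham 1 to 3 and DAC 4 to 6. Values are FPKM, fragments scaled by transcript length and by the mapped fragments of the library.

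Collagen chains are modified before they leave the endoplasmic reticulum. Prolyl 4-hydroxylases, whose alpha subunits are encoded by P4HA1 and P4HA2, hydroxylate prolines and so stabilize the triple helix. Lysyl hydroxylases, encoded by the PLOD genes, hydroxylate lysines, and SERPINH1 encodes HSP47, a chaperone that binds the folded procollagen helix. After secretion, BMP1 cleaves the carboxyl propeptide with the help of PCOLCE, and the lysyl oxidases LOX, LOXL1 and LOXL2 oxidize lysines and hydroxylysines so that the fibers cross-link. In the pressure-loaded heart, cross-linked collagen is known as a source of wall stiffness.

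Of the 10 enzymes, only PLOD2 differed between the groups at the threshold used here for a differentially expressed gene (DEG), an unadjusted limma P under 0.05. It was upregulated in DAC myocardium, from a mean of 2.32 ± 0.375 FPKM (SD, n = 3) in sham to 3.78 ± 0.494 FPKM (SD, n = 3), and each DAC minipig lay above each sham minipig. The other 9 enzymes had overlapping groups and P above the threshold. Of all 11029 genes tested, 8.51% were DEGs, 3.25% upregulated and 5.27% downregulated (358 and 581 genes, or 500 and 407 with mitochondrially encoded genes removed, and 417 and 475 after quantile normalization), so 1 DEG among 10 enzymes is close to that background. Groups that did not overlap were found in 1 of the 10 enzymes and in 14.9% of all genes tested. No gene of the table reached an adjusted P under 0.05 (smallest 0.106, limma with Benjamini-Hochberg adjustment). Of the 6 fibrillar collagen genes that these enzymes act on, 4 were upregulated DEGs. Whether the enzymes and the collagens differ was not tested, and the enzymes had larger standard errors (median 0.214 against 0.146 on the log2 scale).

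**Figure D1:**
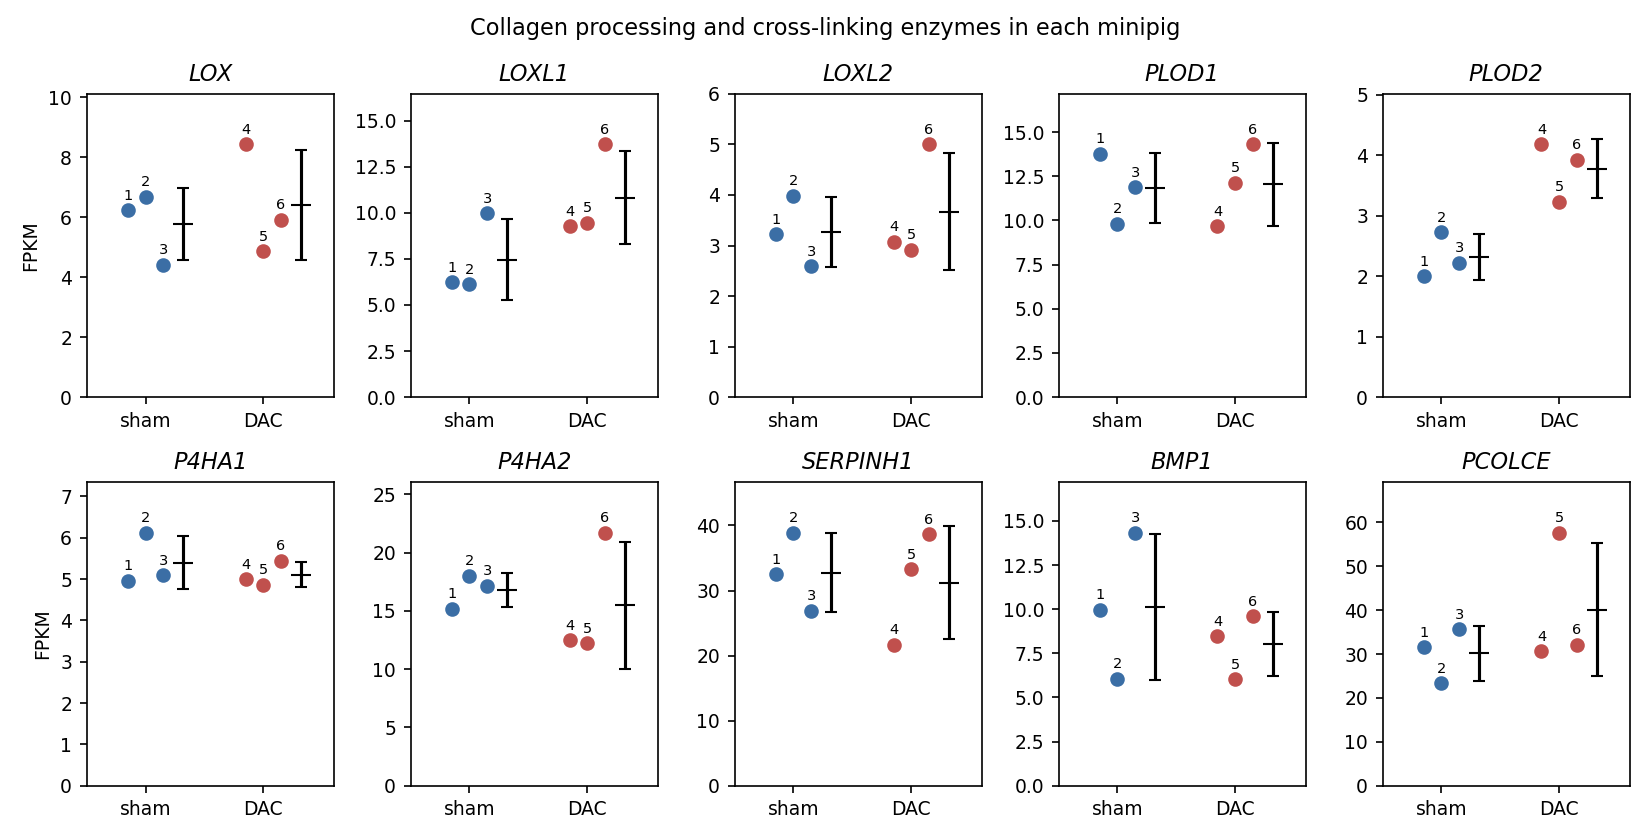
FPKM (vertical axes, each from 0) of the 10 enzymes in the 3 sham (blue) and 3 DAC (red) minipigs, with label numbers beside the points and the mean ± SD as a black bar. The DAC points of PLOD2 lie between 3.23 and 4.18 FPKM, above the sham points between 1.997 and 2.73 FPKM, while the groups overlap in the other panels.

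Some features of the libraries bear on these values. The summed FPKM was between 281377 and 308771 per sample. Mitochondrially encoded genes held between 24.0% and 25.3% of it in sham, 32.8% in DAC 5 and 27.1% and 27.2% in the other DAC samples. The ventricular markers MYH7, MYL2, MYL3, TNNT2, TNNI3, ACTC1 and MYBPC3 were abundant in all samples, with none a DEG, and PLN was not among the listed names. The 2 listed atrial markers, MYL4 and SLN, summed to between 1.49 and 4.80 FPKM in sham, 1.71 FPKM in DAC 5, 10.7 FPKM in DAC 4 and 27.4 FPKM in DAC 6. DAC 6 was also the highest of the 6 samples for 4 of the 10 enzymes (LOXL1, LOXL2, PLOD1 and P4HA2) and the lowest for none. The part of these markers in the enzymes' values was not tested.

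In level, which FPKM allows between genes because it is scaled by length, the enzymes formed a graded series. PCOLCE (mean over 6 samples 35.2 FPKM) and SERPINH1 (31.97 FPKM) stood highest, and their order was not stable, with PCOLCE above SERPINH1 in 3 of 6 minipigs. P4HA2 followed at 16.1 FPKM and PLOD1 at 11.9 FPKM, and each of these steps held in all 6 minipigs. LOXL1 (9.13 FPKM) and BMP1 (9.08 FPKM) were not separated, with LOXL1 the higher in 4 of 6. LOX (6.09 FPKM) lay above P4HA1 (5.25 FPKM) in 4 of 6 minipigs. LOXL2 (3.47 FPKM) and PLOD2 (3.05 FPKM) were lowest, and LOXL2 exceeded PLOD2 in 4 of 6. In DAC alone, the mean of PLOD2 (3.78 FPKM) was above that of LOXL2 (3.67 FPKM).

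Of the lysyl hydroxylases, PLOD2 (ENSSSCG00000011689, chr13:86401244-86513105, minus strand) encodes the enzyme known for the lysines of collagen telopeptides, the ends where cross-links form. It measured 1.997, 2.73 and 2.22 FPKM in sham 1, 2 and 3, against 4.18, 3.23 and 3.93 FPKM in DAC 4, 5 and 6. The lowest DAC value was above the highest sham value, and the ratio of the means was 1.63. On the log2(FPKM + 1) scale, on which a low gene's change is understated, the fold change was 0.53 (standard error 0.13, 95% interval 0.21 to 0.84) and the adjusted P was 0.482 from limma. PLOD2 stayed a DEG with each minipig left out in turn, with log2 fold changes of 0.46 to 0.62.

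PLOD1 (ENSSSCG00000003433, chr6:71988459-72021804, plus strand), whose product hydroxylates lysines within the helix, measured 13.8, 9.81 and 11.9 FPKM in sham and 9.67, 12.1 and 14.3 FPKM in DAC. The DAC range enclosed the sham range. The log2 fold change of PLOD1 was 0.02 (95% interval -0.39 to 0.43, adjusted P = 0.982 from limma), and it turned negative without sham 2 or without DAC 6. PLOD3, a further lysyl hydroxylase that also carries a glycosyltransferase activity, measured 12.1, 11.5 and 12.8 FPKM in sham and 10.9, 9.22 and 10.8 FPKM in DAC. Its groups did not overlap, in the opposite direction to PLOD2, and it was not a DEG (log2 fold change -0.22, 95% interval -0.47 to 0.04).

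Within the summed FPKM of PLOD1, PLOD2 and PLOD3, the PLOD2 share was 7.16%, 11.4% and 8.27% in sham and 16.9%, 13.1% and 13.5% in DAC. Every DAC share was above every sham share (exact permutation test, two-sided, P = 0.10, the smallest that 3 samples against 3 allow). The share rests on the PLOD2 values already seen not to overlap, so it is not independent of them. The sum of the family was 26.3 ± 2.001 FPKM (SD, n = 3) in sham and 26.1 ± 2.53 FPKM (SD, n = 3) in DAC. The totals of the family differed by less than their spread. The ratio of PLOD2 to PLOD3 was 0.165, 0.238 and 0.174 in sham and 0.384, 0.350 and 0.364 in DAC. These ratios could not overlap, because PLOD2 was higher and PLOD3 lower in every DAC minipig than in every sham minipig. Their exact permutation P of 0.10 is therefore no further test. For PLOD2 over PLOD1 the groups overlapped, since sham 2 had a ratio of 0.278 and DAC 5 and DAC 6 had 0.266 and 0.274 (exact permutation P = 0.30).

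The prolyl 4-hydroxylase subunits showed no DEG. P4HA1 (ENSSSCG00000010292, chr14:75825140-75918917, minus strand) had the smallest standard error of the 10 (0.11 on the log2 scale), at 4.96, 6.12 and 5.10 FPKM in sham and 4.997, 4.87 and 5.45 FPKM in DAC. Its log2 fold change was -0.06, with a 95% interval from -0.33 to 0.20 (adjusted P = 0.890 from limma), and it was 0.02 without sham 2. P4HA2 (ENSSSCG00000020915, chr2:134502210-134595430, minus strand) was the more abundant subunit in each minipig, at 15.2, 18.0 and 17.2 FPKM in sham and 12.5, 12.2 and 21.7 FPKM in DAC. DAC 4 and DAC 5 lay below all sham values and DAC 6 above them. The log2 fold change of P4HA2 was -0.16 (95% interval -0.67 to 0.36, adjusted P = 0.859 from limma). Without DAC 6, P4HA2 was a downregulated DEG, with a log2 fold change of -0.41 and an adjusted P of 0.494 from limma. The annotated span of P4HA2 shares 14685 bases with PDLIM4 on the opposite strand, which measured 13.4, 6.98 and 10.95 FPKM in sham and 6.07, 3.11 and 11.8 FPKM in DAC. P4HA1 shares 747 bases of annotated span with NUDT13 on the opposite strand. NUDT13 measured 7.24, 6.07 and 11.1 FPKM in sham and 8.92, 6.19 and 9.42 FPKM in DAC. Whether counting used the strand is not given in the sources used here. P4HA2 made up between 71.4% and 79.9% of the summed subunits in all 6 minipigs, and P4HA3 was not among the listed names.

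SERPINH1 (ENSSSCG00000039468, chr9:9783036-9794483, plus strand), the collagen chaperone, measured 32.5, 38.9 and 26.9 FPKM in sham and 21.7, 33.2 and 38.6 FPKM in DAC. The upper ends of the ranges were alike, and DAC 4 lay below all sham values. The log2 fold change was -0.09 (95% interval -0.64 to 0.45, adjusted P = 0.927 from limma), and its sign changed without sham 2 or DAC 4.

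The propeptide-cleaving pair had the largest standard errors, 0.29 for BMP1 and 0.27 for PCOLCE on the log2 scale. BMP1 (ENSSSCG00000009620, chr14:6443912-6489064, plus strand), the procollagen C-proteinase, measured 9.97, 6.05 and 14.3 FPKM in sham and 8.46, 6.04 and 9.61 FPKM in DAC. Its sham values alone covered the DAC values but for the lowest, DAC 5. The log2 fold change was -0.25 (95% interval -0.93 to 0.44, adjusted P = 0.825 from limma), and it was 0.02 without sham 3. PCOLCE (ENSSSCG00000027466, chr3:8523449-8528739, plus strand), which enhances that cleavage, measured 31.5, 23.4 and 35.7 FPKM in sham and 30.6, 57.7 and 32.1 FPKM in DAC. DAC 5 stood far above the rest, and the remaining DAC values lay within the sham range. PCOLCE had a log2 fold change of 0.36 (95% interval -0.27 to 0.99, adjusted P = 0.718 from limma), which was 0.07 without DAC 5. The ratio of PCOLCE to BMP1 was between 2.49 and 3.86 in sham, 3.62 in DAC 4, 3.34 in DAC 6 and 9.55 in DAC 5. DAC 5 is also the sample with the highest mitochondrially encoded share. With mitochondrially encoded genes left out, the log2 fold change of PCOLCE was 0.40. The part of that share in the DAC 5 value was not tested further.

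Among the lysyl oxidases, LOXL1 came closest to a DEG. LOXL1 (ENSSSCG00000001914, chr7:59481412-59505149, minus strand), known for its role in elastic fibers, measured 6.24, 6.13 and 9.97 FPKM in sham and 9.26, 9.45 and 13.7 FPKM in DAC. All DAC values were above sham 1 and sham 2, and sham 3 lay above DAC 4 and DAC 5. The ratio of the means was 1.45 and the log2 fold change 0.49 (standard error 0.22, 95% interval -0.02 to 1.01, adjusted P = 0.593 from limma). LOXL1 passed the threshold of a DEG when samples were scaled to a common median (log2 fold change 0.50), when they were quantile normalized (0.52), when mitochondrially encoded genes were removed (0.53) and without sham 3 (0.70). Its log2 fold change was 0.32 without DAC 6. The annotated span of LOXL1 shares 1834 bases with INSYN1 on the opposite strand. INSYN1 measured 28.2, 23.9 and 30.6 FPKM in sham and 27.2, 28.1 and 22.2 FPKM in DAC.

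LOX (ENSSSCG00000014232, chr2:125593116-125607594, minus strand), the founding lysyl oxidase, measured 6.23, 6.68 and 4.42 FPKM in sham and 8.43, 4.86 and 5.91 FPKM in DAC. Only DAC 4 lay above the sham range. The log2 fold change was 0.11 (95% interval -0.38 to 0.61, adjusted P = 0.893 from limma) and fell below 0 without sham 3 or DAC 4. LOXL2 (ENSSSCG00000033608, chr14:7435863-7540704, minus strand), which also acts on basement membrane collagen, measured 3.22, 3.98 and 2.59 FPKM in sham and 3.08, 2.92 and 5.01 FPKM in DAC. Only DAC 6 was outside the sham range. Its log2 fold change was 0.11 (95% interval -0.36 to 0.59, adjusted P = 0.890 from limma), and it was below 0 without sham 3 or DAC 6.

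The summed FPKM of LOX, LOXL1, LOXL2, LOXL3 and LOXL4 was 17.3, 18.0 and 18.5 in sham and 22.2, 19.1 and 27.4 in DAC. Every DAC sum was above every sham sum (exact permutation test, two-sided, P = 0.10), and this sum was chosen after seeing the data. Only LOXL3 among the 5 genes had groups that did not overlap. The share over all genes tested, which leaves LOXL3 out, was 14.9%. LOXL3 measured 0.555, 0.526 and 0.739 FPKM in sham and 0.829, 0.773 and 1.69 FPKM in DAC, too low for the filter of the test. Its annotated span shares 147 bases with AUP1 on the same strand and 3387 bases with HTRA2 on the opposite strand. AUP1 measured between 32.85 and 40.6 FPKM and HTRA2 between 9.35 and 12.2 FPKM. LOXL1 made up 36.0%, 34.1% and 54.0% of the sum in sham and 41.6%, 49.5% and 50.03% in DAC, with overlap.

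**Figure D2:**
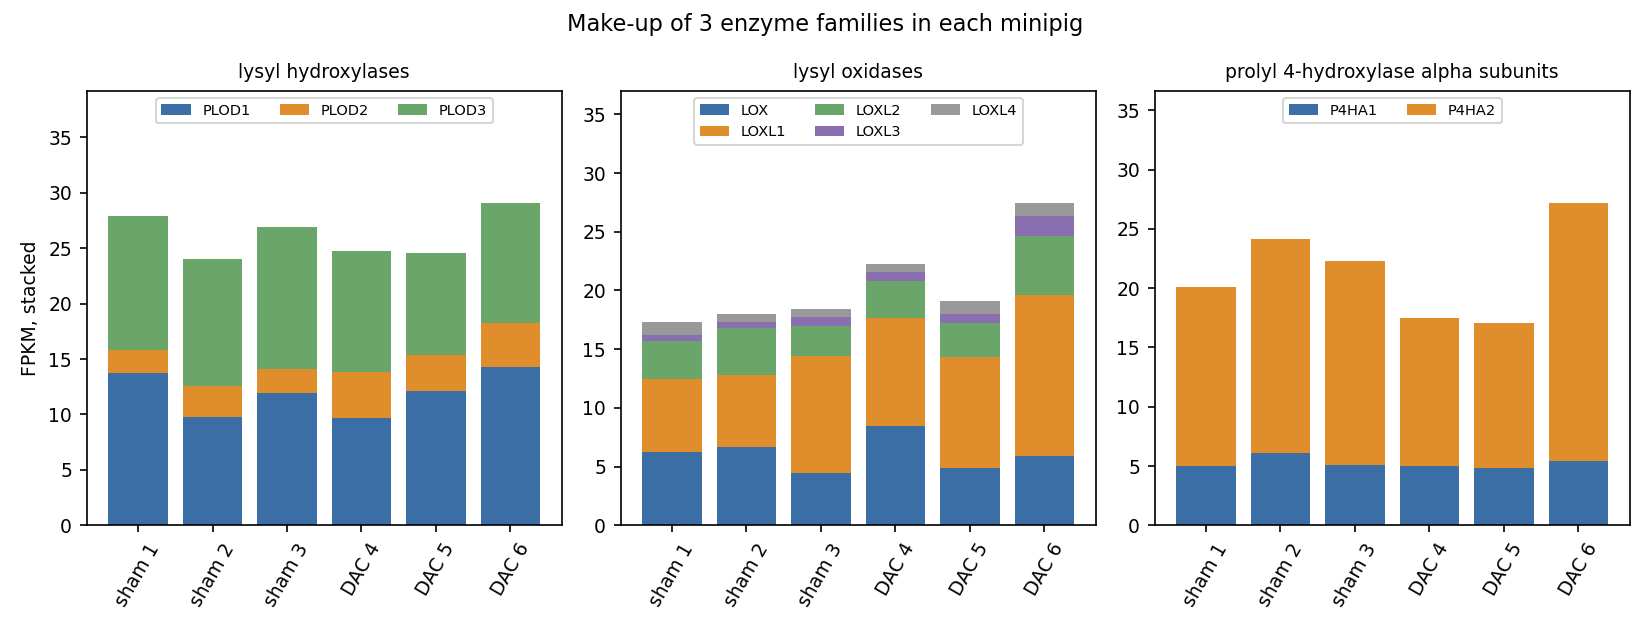
Stacked FPKM (vertical axis) of the lysyl hydroxylases, the lysyl oxidases and the prolyl 4-hydroxylase alpha subunits in each of the 6 minipigs. The total of the first family is alike in both groups, the PLOD2 band is thicker in the DAC bars, and the lysyl oxidase total is highest in DAC 6 at 27.4 FPKM.

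Among the substrates, of the 6 genes for collagens I, III and V, COL1A1, COL1A2, COL3A1 and COL5A2 were upregulated DEGs, with log2 fold changes of 0.81, 0.59, 0.46 and 0.36, and the median over the 6 was 0.41. COL5A1, at 0.27, and COL5A3, at -0.16, were not DEGs, although COL5A1 was an upregulated DEG without DAC 5 (0.49). COL5A2 was no longer a DEG without sham 1, sham 2, DAC 4 or DAC 6. The median over the 10 enzymes was 0.07, with 6 means higher and 4 lower in DAC, and over all genes tested it was -0.02, with 46.7% of means higher. COL1A1 measured 102, 78.5 and 102 FPKM in sham and 189, 170 and 137 FPKM in DAC. COL3A1 measured 177, 158 and 183 FPKM in sham and 237, 223 and 255 FPKM in DAC. COL3A1 and COL5A2 share 3960 bases of annotated span on opposite strands.

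**Figure D3:**
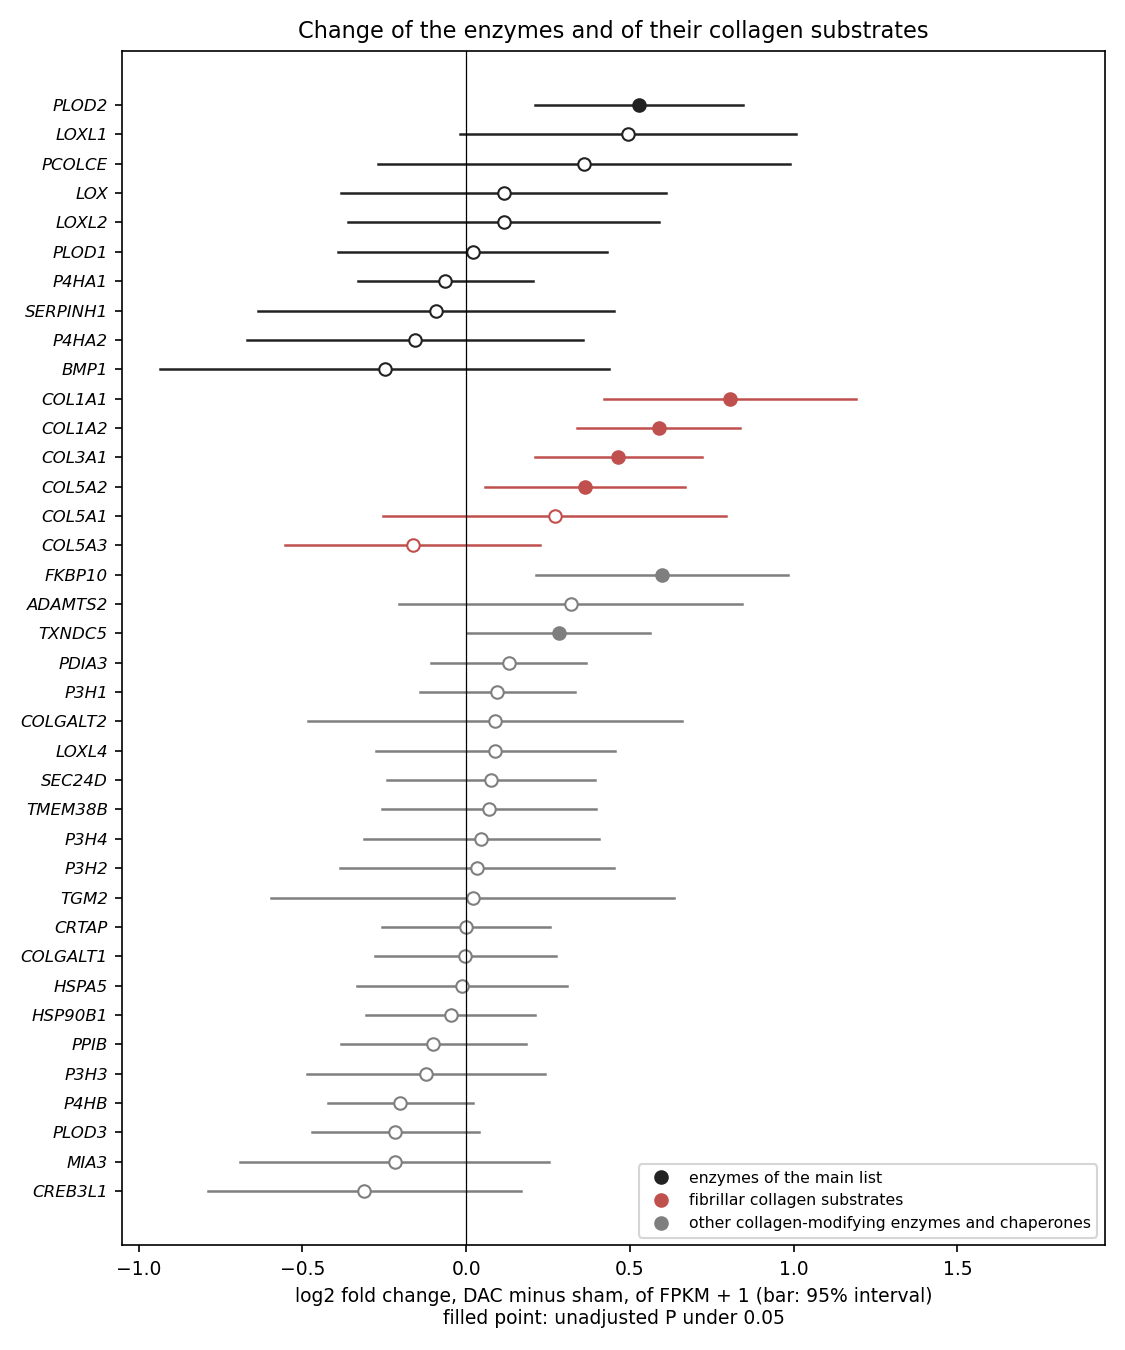
Log2 fold change of FPKM + 1, DAC minus sham, with its 95% interval from limma (horizontal axis) for the 10 enzymes (black), the 6 fibrillar collagen genes (red) and the 22 other tested genes of collagen maturation (gray), where a filled point is a DEG. PLOD2 at 0.53 is the only filled black point, against 4 filled red points and the gray points FKBP10 and TXNDC5.

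Each enzyme was also expressed per 100 FPKM of collagen, using the mean of COL1A1, COL1A2 and COL3A1 in the same minipig, which was between 102 and 120 FPKM in sham and between 167 and 180 FPKM in DAC. On this scale PLOD2 was at 1.67, 2.69 and 1.88 in sham and 2.33, 1.93 and 2.35 in DAC, so that the groups overlapped and the ratio of the geometric means was 1.08 (exact permutation P = 0.60). LOXL1 was between 5.20 and 8.42 in sham and between 5.15 and 8.22 in DAC, a ratio of 0.967 (exact permutation P = 0.70). For 3 of the 10 enzymes the value was lower per collagen in every DAC minipig than in every sham minipig. P4HA1 was between 4.14 and 6.03 in sham and between 2.78 and 3.26 in DAC. PLOD1 was between 9.66 and 11.5 in sham and between 5.38 and 8.58 in DAC, and BMP1 between 5.96 and 12.1 in sham and between 3.61 and 5.76 in DAC (exact P = 0.10 for each of the 3). For SERPINH1 the values were 27.1, 38.3 and 22.7 in sham and 12.0, 19.8 and 23.2 in DAC. Since the denominator rose, lower values were common: 70.1% of all genes tested were lower per collagen in every DAC sample. Whether the enzymes differ from other genes in this was not tested, and their count was 5 without sham 3 and 6 without DAC 6.

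**Figure D4:**
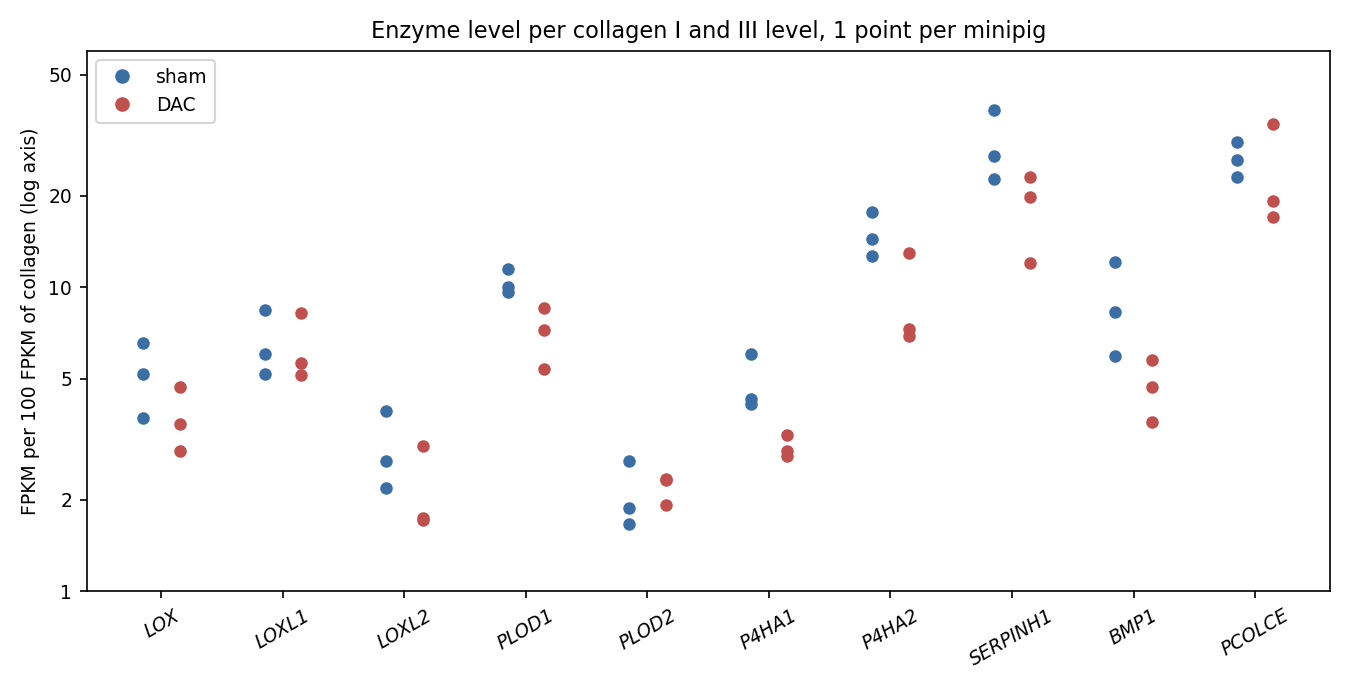
Enzyme FPKM per 100 FPKM of collagen (log axis), the mean of COL1A1, COL1A2 and COL3A1, with 1 point per minipig for sham (blue) and DAC (red). The PLOD2 and LOXL1 points of both groups share their ranges, and those of PLOD1, P4HA1 and BMP1 lie lower in DAC without overlap.

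The wider machinery of collagen maturation was described with a list of 32 further genes, of which 28 were in the table and 22 passed the filter. In this list 2 genes, FKBP10 and TXNDC5, were upregulated DEGs and none was downregulated, a share near the 8.51% of all genes tested, and the median log2 fold change was 0.03. FKBP10 encodes FKBP65, a prolyl isomerase of the endoplasmic reticulum that is known to assist PLOD2 in telopeptide hydroxylation. It measured 3.17, 2.25 and 3.50 FPKM in sham and 4.199, 5.77 and 5.01 FPKM in DAC, with no overlap. The log2 fold change of FKBP10 was 0.60 (standard error 0.16, 95% interval 0.21 to 0.98, adjusted P = 0.5001 from limma), and it stayed a DEG with each minipig left out in turn. FKBP10 shares 301 bases of annotated span with P3H4 on the opposite strand, whose log2 fold change was 0.05. TXNDC5, a disulfide isomerase of the same compartment, measured 15.5, 16.6 and 14.0 FPKM in sham and 16.8, 20.3 and 19.7 FPKM in DAC (log2 fold change 0.28, adjusted P = 0.586 from limma). It was not a DEG without sham 1, sham 3, DAC 5 or DAC 6, after median scaling, or with each gene's own variance.

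P4HB, the beta subunit of prolyl 4-hydroxylase, measured 71.6, 65.5 and 71.1 FPKM in sham and 59.0, 61.6 and 59.8 FPKM in DAC. Its DAC values were all below its sham values, with a log2 fold change of -0.20 (95% interval -0.42 to 0.02, adjusted P = 0.596 from limma), and it was not a DEG, except as a downregulated DEG when each gene's own variance was used. The whole annotated span of P4HB, 9499 bases, lies within that of MRPL12 on the opposite strand. MRPL12 measured 81.2, 63.3 and 67.9 FPKM in sham and 55.5, 63.4 and 57.5 FPKM in DAC, with overlap. Whether P4HB and MRPL12 share counted reads was not tested. For the prolyl 3-hydroxylation complex, the log2 fold changes were 0.10 for P3H1, 0.00 for CRTAP and -0.10 for PPIB. The collagen galactosyltransferases COLGALT1 and COLGALT2 were at -0.0035 and 0.09, and the general chaperones HSPA5 and HSP90B1 at -0.01 and -0.05. None of these 7 was a DEG with all minipigs, and COLGALT2, at 0.675 FPKM in DAC 5 and 1.97 and 2.19 FPKM in DAC 4 and DAC 6, was an upregulated DEG without DAC 5.

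LOX, P4HA1 and PLOD2 are also known as genes induced by low oxygen through hypoxia-inducible factor. In a list of 19 such genes that includes them, 15 were tested, and the median log2 fold change was 0.08. Of the 15, 2 were upregulated DEGs (PLOD2 itself and HK2) and none was downregulated, against 3.25% and 5.27% of all genes tested. HK2, a hexokinase, measured 1.92, 4.11 and 1.85 FPKM in sham and 4.85, 3.25 and 9.42 FPKM in DAC, with overlap (log2 fold change 0.87, adjusted P = 0.585 from limma). HK2 was not a DEG without sham 1, sham 3, DAC 4 or DAC 6, or with each gene's own variance. PDK1, at 0.29, and EGLN1, at -0.25, were not DEGs, although PDK1 was an upregulated DEG after quantile normalization. BNIP3 and EGLN3, at -0.43 and -0.26, were downregulated DEGs only without sham 2.

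The enzymes are made largely by fibroblasts and other mesenchymal cells, and in a bulk sample fewer cells of a type and less RNA per cell cannot be told apart. Of 9 fibroblast markers, 1 was an upregulated DEG, LUM, at 16.6, 19.5 and 25.5 FPKM in sham and 29.3, 38.1 and 36.9 FPKM in DAC. The summed fibroblast markers were between 303 and 343 FPKM in sham, 284 and 321 FPKM in DAC 4 and DAC 5, and 456 FPKM in DAC 6. Of 5 markers of smooth muscle and myofibroblasts, POSTN and CNN1 were upregulated DEGs, CNN1 not without sham 1, sham 2 or DAC 5 nor with each gene's own variance, and the sum was between 64.7 and 93.5 FPKM in sham and between 89.3 and 107 FPKM in DAC. Endothelial markers had 2 upregulated DEGs (EMCN and KDR) and 1 downregulated DEG (VWF) among 6. Their sums were between 101 and 144 FPKM in sham and between 99.4 and 141 FPKM in DAC. Macrophage and leukocyte markers had 1 downregulated DEG (CD163) among 6, with sums between 54.3 and 60.9 FPKM in sham and between 44.9 and 72.4 FPKM in DAC. Adipocyte, red cell and cartilage or bone markers had 1 tested gene each and no DEG, with sums of at most 19.9, 38.5 and 3.81 FPKM in any sample. Over all genes tested, 8.51% were DEGs, and whether the marker counts differ from that share was not tested. The part of these cell markers in the change of PLOD2 was not tested.

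The enzymes did not vary as 1 block across the 6 minipigs. Over their 45 pairs, Pearson's r of log2(FPKM + 1) was positive in 24, with a median of 0.08 and a range from -0.71 to 0.71, given as a description over 6 samples that share the 2 groups. For each enzyme the 2 genes with the highest r were picked from all named genes tested. High values over 6 samples come with such picking, and they were not tested. For PLOD2 they were ITPR2 (r = 0.994) and TMCO1 (r = 0.990). For LOXL1 they were GOLIM4 (r = 0.992) and ACACA (r = 0.984), and for PCOLCE they were NUP188 (r = 0.995) and CCT7 (r = 0.995). LOX was closest to HDGFL3 and RWDD4, LOXL2 to HPS1 and RXFP1, PLOD1 to DSG2 and AKAP6, and P4HA1 to MFSD4A and TRAPPC6B. P4HA2 was closest to RWDD2A and ESYT2, SERPINH1 to AIMP2 and DPYD, and BMP1 to PREP and MANBA, and r was at least 0.967 in all these pairs.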

How the data were processed

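The authors deposited 1 table of FPKM per gene, with a column for each of the 6 minipigs and none pooled; HISAT2 and susScr11 are named in the submitters' processing notes, and the quantification program and annotation are not given in the sources used here. Every gene reaches at least 0.5 FPKM in its highest sample. Depth is unknown: the most frequent ratio between 2 samples was shared by 9 of 13021 genes, so no steps of whole reads were seen. Log2(FPKM + 1) of genes reaching 1 FPKM or more in 3 or more samples was compared with limma 3.58.1 (R 4.3.3), DAC minus sham, using moderated variances with a trend and Benjamini-Hochberg adjustment over 11029 genes. A DEG had an unadjusted limma P under 0.05; the study's methods give the same threshold on P without naming the test or an adjustment. Intervals are 95%, for the difference of the group means, and use limma's moderated standard error, which rests on the spread between minipigs. Ratios were compared with the two-sided exact permutation test over 20 arrangements, and the family sums and ratios between enzymes were chosen after seeing the data. The enzymes and gene lists were chosen with earlier results of these data known. Named were all 10 enzymes, the fibrillar collagens, DEGs of the lists and up to 4 of their smallest P, the markers by sums, and for each enzyme the 2 genes with the highest r; a few others of a list are named by role, and were chosen after their values were seen. Symbols missing from the table were filled from a table of identifiers for 520 genes. The fit was run on simulated data with independent normal noise and changes larger than those of the enzymes. Changes of the size seen in the enzymes were not simulated. Alternatives are given in the closing section.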

Additional observations from a re-analysis of the deposited data

How the results depend on the processing

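No paired analysis was possible because the labels number the sham and DAC minipigs differently and no number is shared. Besides leaving out each minipig, 8 settings were tried. PLOD2 was an upregulated DEG in each of the 13 settings that tested it, and FKBP10 likewise. The count of DEGs among the 10 enzymes was 1, and 2 under quantile normalization, under scaling to a common median and without the mitochondrially encoded genes, where LOXL1 was added. It was 0 with a minimum of 5 FPKM, which removes PLOD2 and LOXL2 from the test. Leaving out 1 minipig gave 1 to 2. Among the other genes of collagen maturation the count was 2, then 1 with a minimum of 5 FPKM and after median scaling, and 1 to 3 without 1 minipig. With each gene's own variance it stayed 2, with P4HB (downregulated) in place of TXNDC5. The hypoxia list went from 2 to 0 with a minimum of 5 FPKM and to 1 with each gene's own variance. It went to 3 under quantile normalization, where PDK1 was added. Without 1 minipig it had 1 to 4, the 4 without sham 2, where BNIP3 and EGLN3 were added as downregulated DEGs. The fibrillar collagens had 3 to 5 without 1 minipig and 4 otherwise. The count of enzymes lower per collagen in every DAC sample was 3, 4 with COL3A1 alone as denominator, and 3 to 6 without 1 minipig (5 without sham 3, 6 without DAC 6).

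The sign of an enzyme's log2 fold change turned only when a minipig was left out. LOX was at -0.0386 (without sham 3) and -0.0741 (DAC 4) in a range up to 0.269, LOXL2 at -0.0029 (sham 3) and -0.0814 (DAC 6) in a range up to 0.233, and PLOD1 at -0.0979 (sham 2) and -0.104 (DAC 6) in a range up to 0.157. P4HA1 was at 0.0162 (sham 2) in a range from -0.112, SERPINH1 at 0.0355 (sham 2) and 0.141 (DAC 4) in a range from -0.262, and BMP1 at 0.0181 (sham 3) in a range from -0.542. The cause was not tested. The scalings moved the median log2 fold change of all genes to between -0.0079 and 0.020. With 3 minipigs a group, the upper ends of the 95% intervals of the 9 enzymes that are not DEGs lie between 0.20 (P4HA1) and 1.01 (LOXL1).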
